A study of Mus musculus with 6 samples.

Results

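The miR-322, miR-503, miR-351, miR-542 and miR-450 cluster is a group of microRNA (miRNA) hairpins that lie close together on the mouse X chromosome. Its members here were 9 mature arms picked by name (mmu-miR-322-5p, mmu-miR-322-3p, mmu-miR-503-5p, mmu-miR-503-3p, mmu-miR-351-5p, mmu-miR-542-3p, mmu-miR-542-5p, mmu-miR-450a-5p and mmu-miR-450b-5p, written below without the species prefix), all of which were found among the 1414 rows of the deposited table. The choice of this cluster drew on its counts in the model and control libraries, so the differences between these groups are given for the members as a description and not as a test. Small RNA was sequenced from pancreas of wild-type C57BL/6 mice weighing 22 to 25 g, in 3 model libraries (replicates 56, 57 and 59) and 3 control libraries (replicates 43, 44 and 45). Model mice had 7 hourly intraperitoneal injections of caerulein, a peptide like cholecystokinin whose excess injures the acinar cells and so gives acute pancreatitis, at 50 mg/kg as the labels state it (a unit in doubt, since caerulein is usually dosed in micrograms), and lipopolysaccharide (LPS, from the outer membrane of bacteria) was added to the last injection, while control mice had saline on the same schedule. Tissue was taken 24 hours after the first injection, and the labels give neither age nor sex. The effects of caerulein and of LPS cannot be told apart, because no group had either without the other.

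A miRNA hairpin is cut into a duplex of a 5p and a 3p arm, 1 of which is usually kept by an Argonaute protein and guides it to messenger RNAs that pair with the seed, bases 2 to 8 of the arm. Hairpins that lie close together on the same strand are often cut from a common primary transcript. In this cluster miR-322, the mouse counterpart of human miR-424, and miR-503 are known for repressing cell-cycle genes such as those for cyclin D1 and the phosphatase CDC25A, and their induction accompanies cell-cycle exit in differentiating muscle cells. The seed of miR-351-5p is that of the miR-125 family, and miR-542-3p has been described as a repressor of survivin in human cancer cells.

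The members are shown by sequence because their seeds set which families they belong to. The mature sequences are those of the deposited table, all 9 are the same in RefSeq on GRCm38.p6, and the seed is in capitals.
miR-322-5p: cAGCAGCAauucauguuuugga
miR-503-5p: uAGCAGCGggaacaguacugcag
miR-322-3p: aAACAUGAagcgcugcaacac
miR-503-3p: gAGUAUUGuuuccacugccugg
miR-351-5p: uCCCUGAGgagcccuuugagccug
miR-542-5p: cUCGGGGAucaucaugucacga
miR-542-3p: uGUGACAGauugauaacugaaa
miR-450a-5p: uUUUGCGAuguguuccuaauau
miR-450b-5p: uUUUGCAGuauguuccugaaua
Over bases 1 to 8, counted from the 5′ end, miR-503-5p differs from miR-322-5p by C1U and A8G, so both share bases 2 to 7 but not the whole seed. Over the same bases miR-450b-5p differs from miR-450a-5p by G7A and A8G, and over the whole arm by 7 substitutions. Among the known miRNAs of the table, 5 rows outside the cluster carried the seed of miR-322-5p (miR-15a-5p, miR-15b-5p, miR-16-5p, miR-195a-5p and miR-497a-5p) and 2 carried that of miR-351-5p (miR-125a-5p and miR-125b-5p). The seed of each of the other 7 members was found in no other known row.

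In GRCm38 the cluster runs over 6353 bases, chrX:53047997-53054349, on the minus strand, with 7 hairpins in the order Mir322, Mir503, Mir351, Mir542, Mir450-2, Mir450-1 and Mir450b in the direction of transcription. Gaps of 200 and 630 bases separate Mir322, Mir503 and Mir351, a gap of 3767 bases precedes Mir542, another of 1035 bases precedes Mir450-2, and the 3 hairpins at the far end lie 54 and 75 bases apart. In the GENCODE M21 annotation none of the 7 hairpins overlaps another gene, the noncoding Gm28730 lies in the long gap (chrX:53051194-53053159), and the noncoding C430049B03Rik, on the same strand, ends 696 bases upstream of Mir322. The sequence of miR-450a-5p is coded by both Mir450-1 and Mir450-2, so its counts cannot be divided between them.

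**Figure D1:**
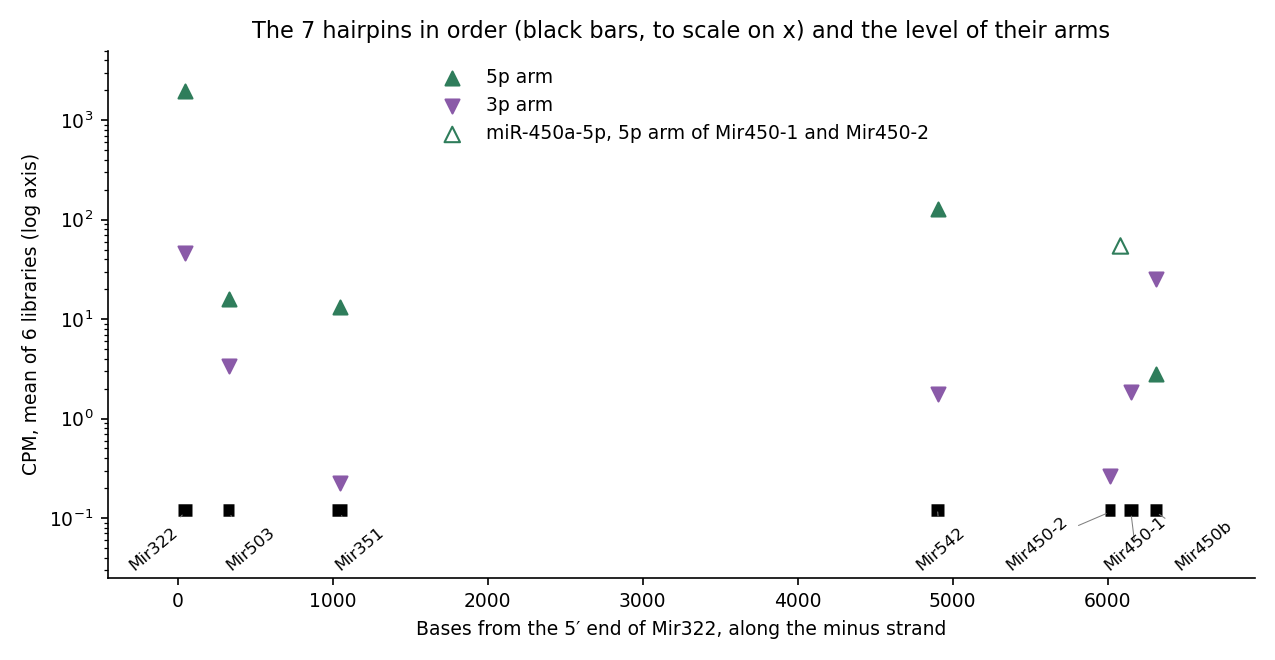
Hairpins of the cluster along the minus strand, in bases from the 5′ end of Mir322 (x), and the mean level of each mature arm over 6 libraries in TMM-scaled CPM (y, log axis), with 5p arms as upward and 3p arms as downward triangles. The 5p arm of Mir322 stands at 1980 CPM at one end, and every other arm is at 127 CPM or less. At the same end miR-503-5p is at 15.9 and miR-351-5p at 13.1 CPM, below miR-542-5p at 127 CPM farther along.

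The levels of the members ranged from 1.77 to 1980 CPM on average. CPM here are counts relative to library size scaled by TMM factors that set the typical miRNA equal between libraries, so every difference is relative to the typical row. With 3 libraries in each group, the order of the mean over all 6 was miR-322-5p at 1980 ± 359 CPM, miR-542-5p at 127 ± 35.6, miR-450a-5p at 54.4 ± 14.3, miR-322-3p at 46.0 ± 11.1, miR-503-5p at 15.9 ± 10.8, miR-351-5p at 13.1 ± 4.06, miR-503-3p at 3.34 ± 1.28, miR-450b-5p at 2.84 ± 0.78 and miR-542-3p at 1.77 ± 0.24 (SD, n = 6). The first 2 were separated from each other and from the next member in every library. The ranges of miR-450a-5p and miR-322-3p overlapped, as did those of neighbours among the last 3, so their order is not settled at this depth. Those of miR-503-5p and miR-351-5p overlapped too, but their order turned with the group. miR-503-5p was above miR-351-5p in every model library and below it in every control. A count of 0 would have allowed 0.897 to 1.11 CPM in model and 1.16 to 1.80 CPM in control libraries (3 counts per library), and no member was at 0 in any library. The last 3 members had 28 to 56 counts over all libraries and did not pass the filter on low counts, which left 6 of 9 members for the fit.

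**Figure D2:**
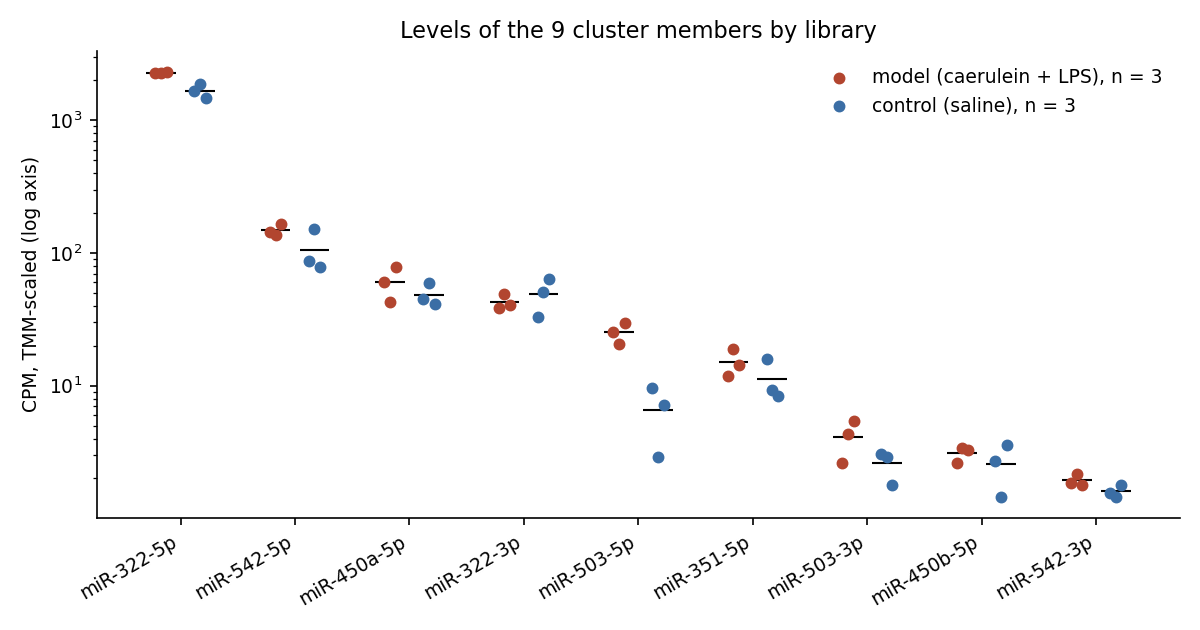
Level of each member in each library in TMM-scaled CPM (log axis), with model libraries in red to the left and control libraries in blue to the right, and the group mean as a black line. The points of miR-503-5p lie at 20.6 to 29.9 CPM in model and 2.92 to 9.63 CPM in control libraries, and those of most other members overlap.

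Of the pair known for cell-cycle control, miR-503-5p had the larger difference. It had 68, 67 and 100 counts in the model libraries, against 25, 6 and 12 in the control libraries. On the CPM scale these were 25.2, 20.6 and 29.9 in model and 9.63, 2.92 and 7.20 in control libraries. Every model library thus lay above every control, with the lowest value in control replicate 44, which held 6 counts. The means were 25.2 ± 4.67 CPM in model and 6.58 ± 3.40 CPM in control libraries (SD, n = 3 each), a log2 fold change of 1.92 (SE 0.44), the highest among the members and rank 9 of the 499 rows tested. From the counts summed over each group, the ratio of TMM-scaled rates was 3.71 (95% exact interval 2.67 to 5.26, for counting error alone).

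The arm with by far the most counts, miR-322-5p, differed less. It had 2281, 2264 and 2311 CPM in model libraries, against 1669, 1882 and 1475 CPM in control libraries. The model libraries were nearly alike and all above the controls, which spread more widely. The means were 2285 ± 23.7 CPM in model and 1675 ± 204 CPM in control libraries (SD, n = 3 each), and the log2 fold change was 0.45 (SE 0.19). Its partner arm miR-322-3p was at 38.5, 48.8 and 40.4 CPM in model and 33.1, 51.1 and 64.2 CPM in control libraries. Those groups overlapped, the log2 fold change was -0.21 (SE 0.30), and its sign turned with total counts alone (0.10) and with the library totals behind the authors' RPM (0.65). The other arm of Mir503, miR-503-3p, had 7, 14 and 18 counts in model and 8, 6 and 3 in control libraries, a ratio of rates of 1.56 with a 95% exact interval of 0.861 to 2.94.

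miR-351-5p, the member with the miR-125 family's seed, was at 11.9, 19.0 and 14.3 CPM in model and 15.8, 9.25 and 8.40 CPM in control libraries. Control replicate 43 lay within the range of the model libraries, and the log2 fold change was 0.42 (SE 0.37). For miR-542-5p the values were 144, 138 and 164 CPM in model and 87.0, 151 and 78.6 CPM in control libraries, with a log2 fold change of 0.49 (SE 0.30). Here control replicate 44 lay among the model libraries and the other controls below them. The survivin-linked arm miR-542-3p had 5, 7 and 6 counts in model and 4, 3 and 3 in control libraries, too few to separate groups (ratio of rates 1.22, 95% exact interval 0.535 to 2.96).

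At the far end of the cluster, miR-450a-5p was at 60.0, 42.6 and 78.0 CPM in model and 44.7, 59.9 and 41.4 CPM in control libraries, with a log2 fold change of 0.31 (SE 0.30). Model replicate 57 lay among the controls. miR-450b-5p had 7, 11 and 11 counts in model and 7, 3 and 6 in control libraries, a ratio of rates of 1.23 with a 95% exact interval of 0.647 to 2.43. Of the 4 arms of these hairpins that are not members, miR-450b-3p alone passed the filter on low counts, at 21.9, 31.9 and 30.5 CPM in model and 21.6, 30.7 and 15.6 CPM in control libraries (log2 fold change 0.31, adjusted p = 0.652 by edgeR, SE 0.33). The remaining arms, miR-351-3p, miR-450a-1-3p and miR-450a-2-3p, had 3, 31 and 5 counts in all.

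Counted over the 6 members that passed the filter, edgeR's quasi-likelihood test with Benjamini-Hochberg adjustment called 0 at an adjusted p under 0.05, against 1.20% of all 499 rows. At an unadjusted p under 0.05 the count was 2 (miR-322-5p and miR-503-5p, both higher in model), against 23.8% of all rows in either direction and 11.4% in that direction. DESeq2 called 1 of the 6 (miR-503-5p, higher in model), against 8.82% of all rows in either direction and 4.41% in that direction. In miR-322-5p and miR-503-5p the lowest model library exceeded the highest control, as it did in 14.4% of all rows. The median log2 fold change of the 6 was 0.44, with 5 positive, beside a median of 0.0050 and 50.3% positive over all rows. Because these counts come from the contrast behind the choice of the cluster, nothing is read from them.

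**Figure D3:**
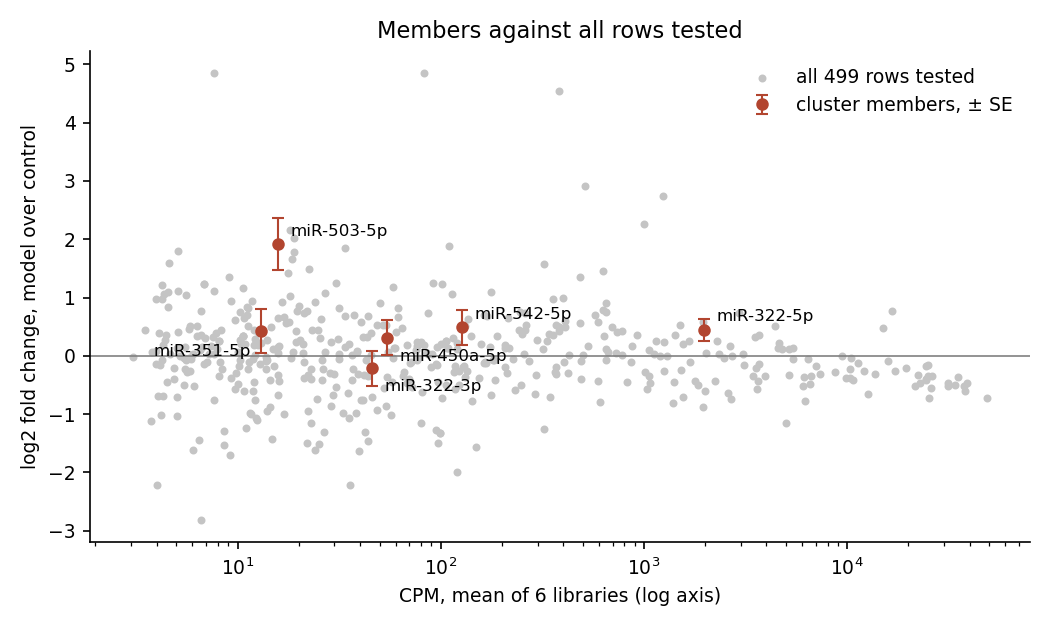
Log2 fold change, model over control (y), against the mean level in CPM (x, log axis) for the 499 rows tested (grey) and the 6 members that passed the filter (red, bars show ± SE). miR-503-5p stands at 1.92, and the other 5 lie between -0.21 and 0.49, within the bulk of the grey points.

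Summed over the 9 members, the cluster had 2568, 2543 and 2648 CPM in model and 1866, 2162 and 1681 CPM in control libraries. As a share of all counts it was 0.287% ± 0.0174 in model and 0.172% ± 0.0238 in control libraries (SD, n = 3 each). Groups did not overlap on either scale, while every model library exceeded every control in 14.4% of all rows. These sums use the counts behind the choice of the cluster and are a description. The log2 fold of the mean CPM was 0.44, and it was 0.15 with upper quartile factors and 1.22 with the library totals behind the authors' RPM. miR-322-5p supplied 87.3% to 89.0% of the summed counts in model and 87.0% to 89.4% in control libraries, so the sum is in the main this arm. Without it the rest summed to 301 ± 31.9 CPM in model and 228 ± 45.4 CPM in control libraries (SD, n = 3 each), and control replicate 44, at 280.4, lay within the model range of 279 to 337. In such bulk tissue a change in the number of cells of a type and a change in RNA per cell cannot be told apart.

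Ratios within a library do not depend on the scaling between libraries. Per 1000 counts of miR-322-5p, there were 11.0, 9.08 and 12.9 counts of miR-503-5p in model libraries, against 5.77, 1.55 and 4.88 in control libraries. The model libraries thus held relatively more miR-503-5p, with no overlap. This ratio uses counts behind the choice of the cluster and is a description, and no share over all rows was computed for it. For the other 7 members the groups overlapped on this measure. For miR-542-5p it was 63.2, 60.8 and 71.1 in model and 52.2, 80.4 and 53.3 in control libraries, and for miR-450a-5p it was 26.3 ± 7.46 in model and 28.9 ± 2.62 in control libraries (SD, n = 3 each).

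The balance of arms differed between hairpins far more than between groups. The hairpins are shown with both mature arms in capitals, the 5p arm first, for 1 hairpin that favoured its 5p arm and 1 that favoured its 3p arm.
mir-542: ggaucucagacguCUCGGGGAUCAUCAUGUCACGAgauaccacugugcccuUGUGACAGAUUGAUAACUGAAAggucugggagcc
mir-450b: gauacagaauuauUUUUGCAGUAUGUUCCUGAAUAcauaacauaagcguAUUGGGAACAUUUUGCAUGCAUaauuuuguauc
For mir-542 the 5p arm had 2056 counts and the 3p arm 28 over all libraries, a ratio of 73.4, and the 5p arm was ahead in 6 of 6 libraries. For mir-450b the order was reversed, with 45 counts of the 5p arm and 410 of the 3p arm, a ratio of 9.11 in favour of 3p that held in 6 of 6 libraries. For mir-322 the 5p arm was ahead 45.9 times, for mir-351 72.0 times with 3 counts of the 3p arm, and for mir-503 4.96 times. Among the 248 hairpins of the table with both arms listed and a mean of at least 10 counts on 1 of them, the 5p arm had more counts in 141 and the 3p arm in 106.

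Of these 5 hairpins, the model and control libraries were apart only in mir-503, by the log2 of 5p over 3p counts after 1 was added to both, against 19.0% of the 248 hairpins apart in either direction. This ratio uses the counts of miR-503-5p behind the choice of the cluster and is a description. For mir-503 it was 2.57 ± 0.48 in model and 1.08 ± 0.94 in control libraries (SD, n = 3 each), with 3.11, 2.18 and 2.41 in model and 1.53, 0 and 1.70 in control libraries. The value of 0 came from control replicate 44, with 6 counts on each arm, and without it the difference between the group means was 0.95 in place of 1.49. For mir-322 it was 5.74 ± 0.19 in model and 5.11 ± 0.57 in control libraries, for mir-542 it was 6.04 ± 0.24 in model and 5.61 ± 0.63 in control libraries, and for mir-450b it was -3.05 ± 0.12 in model and -2.93 ± 1.03 in control libraries. In these 3, and in mir-351, the groups overlapped.

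**Figure D4:**
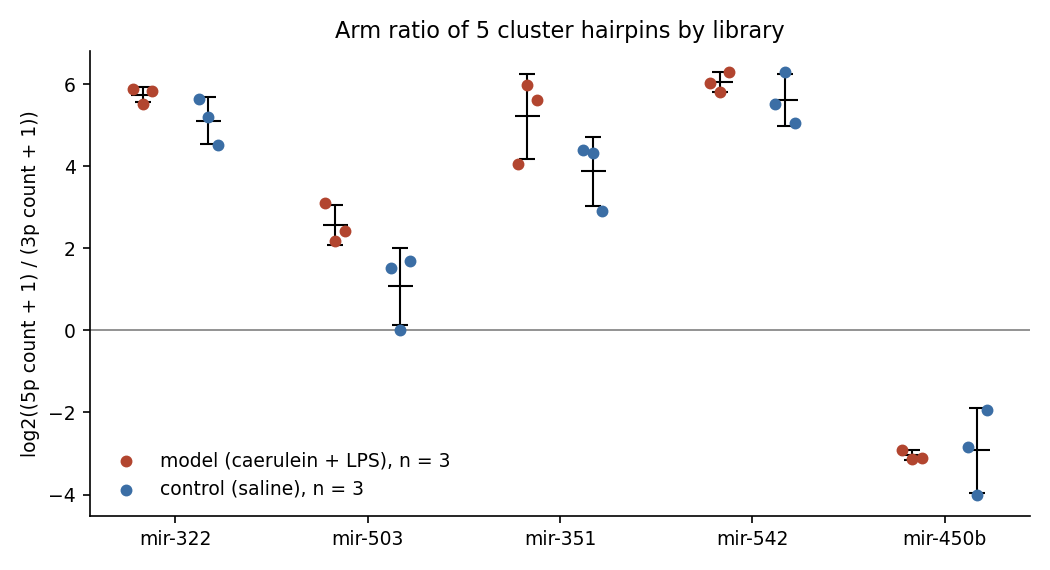
Log2 ratio of 5p to 3p counts, with 1 count added to each arm, for 5 hairpins (x) in each library, model in red to the left and control in blue to the right, with mean and SD in black. mir-450b lies below 0 in all 6 libraries, and mir-503 has model libraries at 2.18 to 3.11 and controls at 0 to 1.70.

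By seed, miR-322-5p and miR-503-5p belong to a pool that other hairpins dominate. For comparison, abundant arms of that pool from other chromosomes are these, with the seed in capitals.
miR-15a-5p: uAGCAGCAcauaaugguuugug
miR-16-5p: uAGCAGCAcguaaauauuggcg
miR-195a-5p: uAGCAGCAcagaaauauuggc
The pool of all 7 known rows with AGCAGC at bases 2 to 7 summed to 28886 ± 1961 CPM in model and 31191 ± 4710 CPM in control libraries (SD, n = 3 each), and the groups overlapped. Of its counts, the 2 cluster arms made up 8.65%, 7.72% and 7.70% in model and 6.41%, 5.91% and 4.17% in control libraries, so their share was higher in each model library. This share uses the counts behind the choice of the cluster, mostly those of miR-322-5p, and is a description. No share of such separations over all rows was computed for it. Over all libraries miR-322-5p alone was 6.90% of the pool and miR-503-5p 0.060%. For miR-351-5p the share was smaller still, at 0.172% of the pool with CCCUGA at bases 2 to 7, which miR-125a-5p and miR-125b-5p otherwise filled.

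**Figure D5:**
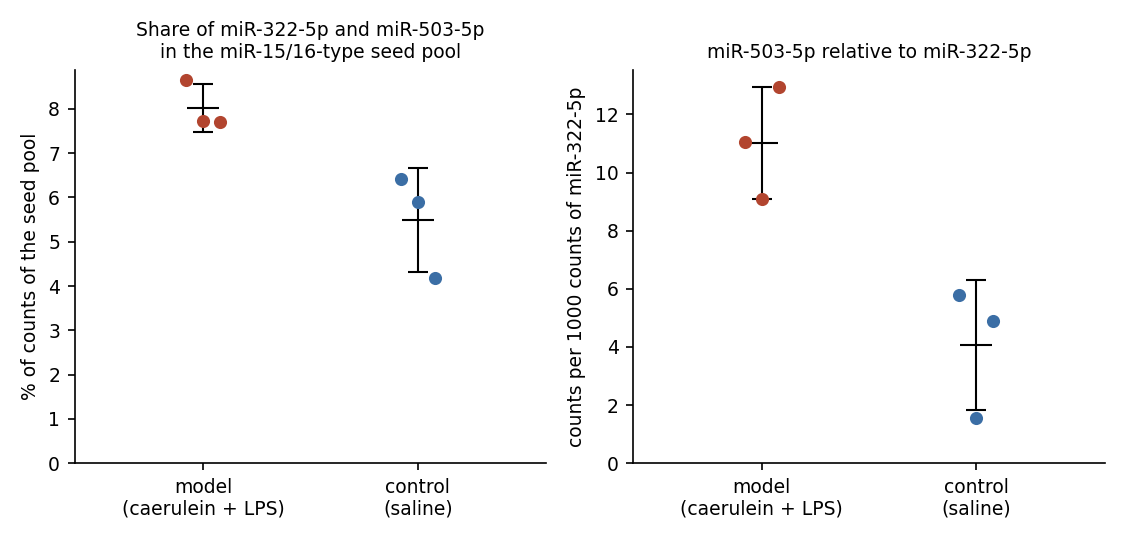
Left, share of miR-322-5p and miR-503-5p in the counts of the 7 rows that share bases 2 to 7 with them (y, %); right, counts of miR-503-5p per 1000 counts of miR-322-5p (y), for model and control libraries, with mean and SD in black. Model libraries sit at 7.70% to 8.65% and at 9.08 to 12.9, and controls at 4.17% to 6.41% and at 1.55 to 5.77. Both measures use counts behind the choice of the cluster and are a description.

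The seed relatives outside the cluster are no members and were tested with all rows, although the lists were drawn up with earlier results of these data known. Of the 5 that passed the filter with the miR-15/16 seed, edgeR and DESeq2 each called 0, against 1.20% and 8.82% of all rows, with 1 at an unadjusted p under 0.05 in edgeR, against 23.8% of all rows, and their median log2 fold change was 0.16. The abundant miR-16-5p was at 15332 ± 1358 CPM in model and 16249 ± 3953 CPM in control libraries (SD, n = 3 each), a log2 fold change of -0.08 (adjusted p = 0.832 by edgeR, SE 0.19). For miR-15a-5p, which is coded beside a copy of miR-16, the values were 8595 ± 328 CPM in model and 11145 ± 1213 CPM in control libraries, a log2 fold change of -0.37 (adjusted p = 0.157 by edgeR, SE 0.14). miR-195a-5p was at 922 ± 354 CPM in model and 823 ± 542 CPM in control libraries, a log2 fold change of 0.16 (adjusted p = 0.883 by edgeR, SE 0.49). Of 2 miR-125 family members edgeR and DESeq2 called 0, with 0 at an unadjusted p under 0.05, and both spread widely among controls. Control replicate 45 held 14715 CPM of miR-125b-5p against 2596 to 6166 CPM in the other 5 libraries, and the log2 fold change of miR-125b-5p, -0.52 with all libraries (adjusted p = 0.693 by edgeR, SE 0.62), became 0.54 when that library was left out. That of miR-125a-5p was -0.65 (adjusted p = 0.274 by edgeR, SE 0.32).

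A neighbouring miRNA cluster on chromosome X, which runs from miR-106a to miR-363 and is related to miR-17/92, begins 305429 bases downstream. Of its 4 members that passed the filter edgeR and DESeq2 called 0. At an unadjusted p under 0.05 in edgeR there were 2, both higher in model, against 23.8% of all rows in either direction and 11.4% higher. The median log2 fold change was 0.55, with all 4 positive, against 50.3% of all rows. Its most abundant arms, miR-92a-3p (log2 fold change 0.33, adjusted p = 0.368 by edgeR, SE 0.20) and miR-19b-3p (0.71, adjusted p = 0.124 by edgeR, SE 0.23), are also coded on chromosome 14, and the counts cannot be divided between the loci. For miR-20b-5p, coded here alone, it was 0.40 (adjusted p = 0.787 by edgeR, SE 0.69). For miR-363-3p, also particular to this locus and named after its values were seen, it was 1.80 (adjusted p = 0.157 by edgeR, SE 0.64), with 7.87 ± 4.82 CPM in model and 2.29 ± 1.31 CPM in control libraries (SD, n = 3 each), and the groups did not overlap (31.1% of all rows in either direction). In the X-linked cluster that runs from miR-188 to miR-660 edgeR called 0 of 7, against 1.20% of all rows. DESeq2 called 1 (miR-188-5p, higher and named after its values were seen), against 8.82% of all rows in either direction and 4.41% higher. At an unadjusted p under 0.05 in edgeR there were 2 of the 7, both higher in model, against 23.8% of all rows in either direction and 11.4% higher. The median log2 fold change was 0.44. Among its most abundant arms the log2 fold change was 0.57 for miR-501-3p (adjusted p = 0.205 by edgeR, SE 0.24) and -0.08 for miR-500-3p (adjusted p = 0.949 by edgeR, SE 0.40).

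The measured levels of the members did not vary as a unit over the 6 libraries. Of 15 pairs among the 6 members that passed the filter, Pearson's r of log2(CPM + 1) was positive in 9 and ran from -0.59 to 0.89 with a median of 0.31. It was 0.89 between miR-322-5p and miR-542-5p and 0.77 between miR-542-5p and miR-450a-5p, which come from the start, the middle and the far end of the cluster. After group means were subtracted these were 0.91 and 0.72. All 5 pairs that include miR-322-3p were negative. Between miR-322-5p and miR-503-5p r was 0.71 over all libraries and -0.64 within groups. These pairs share libraries and scaling, and with 3 libraries a group they are a description. miR-503-5p had 6 to 100 counts a library and miR-351-5p 14 to 62, and the part of counting error in r was not tested.

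The rows outside the cluster whose levels were most like the summed cluster, by Pearson's r of log2(CPM + 1) over the 6 libraries, were miR-28a-3p (0.98), miR-224-5p (0.98), miR-20a-5p (0.97), miR-669b-5p (0.97) and miR-467a-5p (0.94). Over the 364 known rows of at least 10 CPM compared, the median r was 0.052, and 9 exceeded 0.9. Within groups the values for the same 5 were 0.96, 0.93, 0.85, 0.80 and 0.79. By Spearman's rho another row came first, 8 rows tied behind it at 0.943, of which 4 were among these 5, and miR-467a-5p was at 0.771. With ties in name order, 1 of the 5 was among the first 5 by rho, so the choice of rows rests on the measure.

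Total counts per library were 2489009 to 3006220 in model and 1943693 to 2629801 in control libraries. Control replicates 44 and 45 lay below every model library in depth, while control replicate 43 lay within the model range. TMM factors were 1.08 to 1.16 in model and 0.858 to 0.988 in control libraries, so the scaling moved with the group. The table held 10.2% to 13.6% of the totals behind the authors' RPM in model and 7.17% to 9.43% in control libraries. The labelled tissue showed its markers, with all 8 acinar and all 4 islet rows counted. The summed level of the acinar list was 50646 to 54275 CPM in model and 60514 to 97164 CPM in control libraries, that of the islet list was 39071 to 52268 CPM in model and 59266 to 81204 CPM in control libraries, and that of both endothelial rows was 32211 to 37872 CPM in model and 40568 to 47690 CPM in control libraries. On this scale these 3 sums were lower in every model library, with log2 folds of the mean of -0.49 (acinar), -0.60 (islet) and -0.30 (endothelial), and with the totals behind the authors' RPM the sign turned in all 3, to 0.34, 0.20 and 0.49. The endothelial sum was mostly miR-126a-3p (log2 fold change -0.36), while miR-126a-5p was at 0.12. Of the islet rows tested, miR-375-3p, the largest part, was at -0.73, miR-184-3p at -0.71 and miR-7a-5p at 0.0050. Of the 8 acinar rows, none of which had a positive log2 fold change, edgeR called 0, DESeq2 1 lower (miR-216a-3p), and 3 had an unadjusted p under 0.05 in edgeR. Of the 3 islet rows that passed the filter, edgeR called 0, DESeq2 1 lower (miR-375-3p), and 1 had an unadjusted p under 0.05 in edgeR. The shares over all rows in either direction were 8.82% by DESeq2 and 23.8% unadjusted, and DESeq2 called 22 of 499 rows lower. Sums overlapped for 7 leukocyte rows, at 5160 to 10762 CPM in model and 4764 to 7081 CPM in control libraries. The largest part of that sum was miR-150-5p, at 3454 ± 2228 CPM in model and 4404 ± 769 CPM in control libraries (SD, n = 3 each). Of the 7 leukocyte rows, 6 had a positive log2 fold change (median 0.99, against 50.3% positive over all rows), edgeR called 1 higher (the myeloid miR-223-3p, against 1.00% of all rows) and DESeq2 called 3 higher (miR-223-3p, miR-223-5p and miR-142a-3p, against 4.41%). Sums also overlapped for 10 mesenchymal rows (17644 to 21323 CPM in model and 18374 to 28411 CPM in control libraries), 7 striated muscle rows (95.4 to 131 CPM in model and 73.2 to 157 CPM in control libraries) and 5 erythroid rows (7110 to 12098 CPM in model and 10652 to 13635 CPM in control libraries). The mesenchymal sum was mostly miR-143-3p (log2 fold change -0.26). Of 9 mesenchymal rows tested, edgeR and DESeq2 called 0, and 5 had a positive log2 fold change. At an unadjusted p under 0.05 in edgeR there was 1 (miR-145a-5p, higher), against 23.8% of all rows in either direction. Every model library was above every control in 3 (miR-145a-5p, and miR-199a-3p and miR-199b-3p with identical counts) and below in 1 (miR-199a-5p). In the other lists, every model library was below every control in 6 of 8 acinar, 2 of 3 islet and 1 of 2 endothelial rows. It was above in 3 of 7 leukocyte rows. Over all rows 31.1% were apart in either direction. No marker was at 0 over all libraries. The part of cell makeup and of depth in the values of the cluster was not tested.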

How the data were processed

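Pancreatic small RNA was measured in 6 libraries. Short RNA was taken from a gel, joined to adapters that carry molecular identifiers and amplified by PCR, per the labels' protocols. Bowtie2 and GRCm38.p6 are named in the submitters' processing notes, without a role. The sources used here do not say whether identifiers were collapsed, and intervals therefore cover counting error only. The authors deposited 1 table of mature arms with whole-number counts of reads and RPM values, named so in its headers, which are those counts divided by library totals of 22055639 to 27876715, recovered here from rows of at least 100 counts. No member shares its sequence with another row.

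All rows were fitted with edgeR 4.0.16 in R 4.3.3 (filterByExpr with minimum count 10 and minimum total 15, TMM, robust dispersions, glmQLFit, two-sided glmQLFTest, Benjamini-Hochberg over 499 rows, threshold 0.05), tested on simulated data. DESeq2 1.42.0, other scalings (RLE, upper quartile, total counts, the authors' totals), no filter, repeated sequences kept once and leaving out each library were alternatives. Groups were taken from titles, and the labels name no batch and leave unsaid whether each library is a separate mouse. The p-values then cover only library-to-library spread, possibly technical. Named by rule were all members and other arms, the 3 most abundant tested rows of each list and the 5 rows most like the cluster. Named after their values were seen were miR-363-3p, miR-188-5p, miR-216a-3p, miR-223-5p, miR-199a-3p and miR-199b-3p. Marker lists are given as sums, with counts of rows and some single rows beside them. Members and lists were chosen with earlier results of these data known. Positions are from GENCODE M21 and sequences from the table and RefSeq, both on GRCm38.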

Additional observations from a re-analysis of the deposited data

How the results depend on the processing

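Over all 499 rows, 6 were called (5 higher, 1 lower). The count was 15 with RLE factors (7 higher, 8 lower), 45 with upper quartile factors (6, 39) and 18 with total counts alone (17, 1). It was 126 with the library totals behind the authors' RPM (124, 2), 58 of 1414 rows with no filter (23, 35) and 44 with DESeq2 (22, 22). When 1 library was left out it ran from 3 to 10, of 517 to 534 rows. Among members, miR-503-5p was called with DESeq2, beside 44 of 499 rows, and with total counts alone, beside 18 of 499. With no filter it was called too, beside 58 of 1414 rows, and all 9 members were then tested. By the authors' totals 4 members (miR-322-5p, miR-503-5p, miR-542-5p and miR-450a-5p) were called, beside 126 of 499 rows. In the other settings 0 were called. These calls come from the contrast behind the choice of the cluster, and nothing is read from them. Across the 499 rows the median moved by -0.29 (log2) with upper quartile factors, 0.29 with total counts alone and 0.79 by the authors' totals. The log2 fold of the summed cluster, 0.44, moved with these to 0.15, 0.74 and 1.22, and was 0.33 to 0.53 with 1 library left out.

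The log2 fold change of miR-503-5p ran from 1.56 to 2.66 over 13 alternatives and was lowest without control replicate 44. Those of miR-322-5p (0.16 to 1.22), miR-351-5p (0.13 to 1.18), miR-542-5p (0.19 to 1.28) and miR-450a-5p (0.011 to 1.08) stayed positive in all 13. The lowest, for miR-450a-5p with upper quartile factors, had an SE of 0.33. The refits share libraries and use the counts behind the choice of the cluster, so these ranges are a description. For miR-322-3p the sign turned, to 0.10 with total counts alone and 0.65 by the authors' totals. With the authors' totals they also turned for miR-15a-5p (0.42), miR-16-5p (0.76), miR-125a-5p (0.22), miR-125b-5p (0.40) and miR-500-3p (0.80), with total counts alone for miR-16-5p (0.23) and miR-500-3p (0.24), and with upper quartile factors for miR-195a-5p (-0.13) and miR-532-5p (-0.34). With 1 library left out the range crossed 0 for miR-16-5p (-0.25 to 0.089), miR-195a-5p (-0.17 to 0.83), miR-125b-5p (-0.92 to 0.54), miR-20b-5p (-0.57 to 0.88), miR-500-3p (-0.37 to 0.38), miR-532-5p (-0.57 to 0.68) and the mir-450b arm ratio (-0.66 to 0.37). The cause was not tested. No paired analysis was possible because the groups share no replicate number.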

Other observations

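In the X-linked cluster that runs from miR-188 to miR-660, miR-532-5p stood at 12.6 CPM in model replicate 56 and 10.8 CPM in control replicate 43, against 3646 and 3413 CPM in the other model libraries and 3902 and 2995 CPM in the other controls. One library of each group thus stood far below the rest, and the log2 fold change was 0.03 (adjusted p = 0.993 by edgeR, SE 2.04).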
